A study of Homo sapiens with 15 samples.

Results

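The RNA levels of 32 genes that make, take up, move and store cholesterol were followed in NCI-H295R cells, an established human adrenocortical carcinoma line that makes steroid hormones. The genes were taken from a fixed list of symbols, all 32 were found among the 21493 genes counted, and all 32 passed the filter on low counts. The rule that names them uses no measured value, although it was set with earlier results of these data known. They fall into 8 genes of the mevalonate steps, 3 of the squalene steps, 9 of the steps between lanosterol and cholesterol, 4 of the control by SREBP2, 4 of uptake and the lysosome, 2 of ester storage and 2 of cholesterol transfer.

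Cells build cholesterol from acetyl-CoA through mevalonate, farnesyl diphosphate, squalene and lanosterol. SREBF2 encodes SREBP2, the transcription factor that turns this pathway on when sterols in the endoplasmic reticulum are low. SCAP carries SREBP2 to the Golgi for cleavage, and the INSIG1 and INSIG2 proteins hold the complex of SCAP and SREBP2 back when sterols are plentiful. Steroid-making cells also take cholesterol esters from lipoproteins through SCARB1, store esters made by SOAT1 and release them with the hormone-sensitive lipase LIPE, and all of their steroid hormones are made from cholesterol.

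ΔNFATC4 cells (3 libraries) carried a plasmid for NFATC4 without its N-terminal part, a form of this calcineurin-dependent transcription factor that is always active, and mock cells (4 libraries) carried the empty plasmid. Both are of wild-type genotype, and their RNA was taken 3 days after a transient transfection. Libraries labelled NFATC4-KO (4, numbered 1, 2, 3 and 5) came from NCI-H295R cells in which NFATC4 had been targeted in 2 exons with CRISPR/Cas9 and grown from single cells, so clonal differences and the deletion cannot be told apart. Libraries labelled control (4) came from wild-type cells that, by the study's methods, had received empty plasmids in parallel, and the labels list no treatment for either. No source used here says whether replicates were separate cultures, so the p values reflect the spread among libraries that may differ only technically.

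The library totals ranged from 18.8 to 28.2 M counts. Levels are given in CPM, counts scaled to a common library size after TMM normalisation. NFATC4 itself had 329, 358 and 340 CPM in ΔNFATC4 cells, against 92.2, 92.9, 106 and 87.6 CPM in mock cells. It had 92.2, 84.8, 58.2 and 53.8 CPM in libraries labelled NFATC4-KO, against 115, 110, 45.0 and 54.1 CPM in libraries labelled control, so the RNA level did not separate these labels, and RNA of an edited gene can persist. Of the 8 adrenocortical markers checked, each was detected in every library, and the lowest level, 3.02 CPM, was that of MC2R, the ACTH receptor, in NFATC4-KO 5. The control and NFATC4-KO libraries fell into 2 sets that cut across the labels. NFATC4-KO 1 and 2 and control 1 and 2, called the first set below, correlated with the mean of mock at 0.987 to 0.990 across genes, whereas NFATC4-KO 3 and 5 and control 3 and 4, the second set, did so at 0.954 to 0.961. The sets were known from the values of these same libraries, so differences between a set and other libraries are described with their standard error and whether the libraries overlap, without a test. Where NFATC4-KO is tested against control within the sets or with the set as a block, the division rests on the values tested, and those p values are not independent of it.

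Levels among the genes were compared per kilobase of merged exon. SCARB1, the HDL receptor, was the most abundant, with a mean of 242 CPM per kb in ΔNFATC4 cells and 209 CPM per kb in mock cells. SOAT1, EBP, SCAP and FDPS followed, with 40.9 to 68.3 CPM per kb in ΔNFATC4 cells and 47.1 to 70.5 CPM per kb in mock cells. TM7SF2, one of the sterol reductases of the pathway, was the least abundant with 1.76 CPM per kb in ΔNFATC4 cells and 1.46 CPM per kb in mock cells. HSD17B7 and SQLE were also low, at 2.25 and 2.64 CPM per kb in ΔNFATC4 cells and 3.18 and 3.55 CPM per kb in mock cells.

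The comparison of ΔNFATC4 with mock cells asks which genes follow active NFATC4. In these 7 libraries 18 of the 32 cholesterol genes fell and 1 rose at an adjusted p under 0.05, while 6.10% of all 14094 genes tested fell and 7.69% rose. The genes that fell were 14 of the 20 synthesis enzymes, 3 of the 4 control genes and STARD4, and the gene that rose was SCARB1. The changes were modest, since none of the 32 genes fell or rose by over 2-fold, as 0.149% and 2.18% of all genes did. The median log2 fold change of the 20 synthesis genes was −0.38, against −0.003 over all genes tested. A fit of all 15 libraries shares 1 estimate of the spread with the control and NFATC4-KO libraries. In that fit 4 of the 32 genes fell (FDFT1, LSS, CYP51A1 and SQLE) and 0 rose, with an adjusted p of 0.541 for INSIG1. Over all 14368 genes in it, 204 fell and 326 rose.

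**Figure D1:**
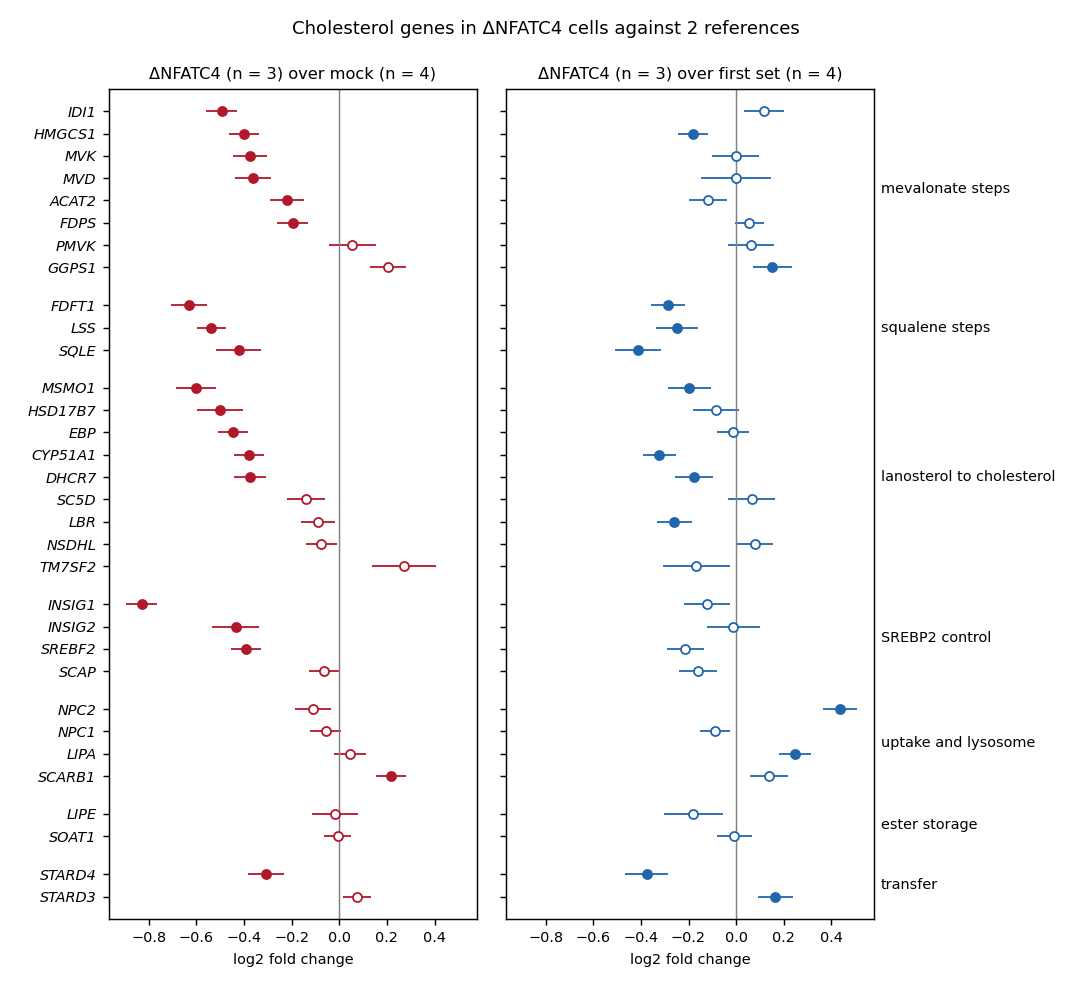
Log2 fold change ± standard error of the 32 genes (rows, by role) in ΔNFATC4 over mock libraries (left) and over the first library set (right). Filled points mark an adjusted p under 0.05 on the left and libraries that do not overlap on the right. On the left 18 genes fell and 1 rose, and on the right 9 lay below and 4 above in every library.

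INSIG1, which is itself switched on by SREBP2, fell most of the 32. It had 58.0, 57.0 and 58.9 CPM in ΔNFATC4 cells, against 98.8, 108, 97.3 and 110 CPM in mock cells. The 3 ΔNFATC4 libraries lay close together and far below every mock library, with a log2 fold change of −0.83 ± 0.07 (standard error) and an adjusted p of 2.41e-08. INSIG2, its paralogue, had 20.7, 18.4 and 21.4 CPM in ΔNFATC4 cells, against 29.5, 30.0, 27.9 and 22.2 CPM in mock cells. Mock 4 lay nearest to the ΔNFATC4 libraries, and INSIG2 fell with a log2 fold change of −0.43 ± 0.10 (adjusted p = 0.00468), a call that was lost without ΔNFATC4 replicate 2 (adjusted p = 0.055).

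SREBF2, the gene for SREBP2, had 106, 116 and 99.7 CPM in ΔNFATC4 cells, against 137, 141, 146 and 142 CPM in mock cells. The groups did not overlap, and SREBF2 fell with a log2 fold change of −0.39 ± 0.06 (adjusted p = 0.000188). SCAP had 307, 331 and 294 CPM in ΔNFATC4 cells, against 319, 300, 350 and 337 CPM in mock cells. Its libraries overlapped, and its log2 fold change of −0.06 ± 0.06 did not pass the test (adjusted p = 0.588).

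All 3 genes of the squalene steps fell. FDFT1 encodes squalene synthase, the enzyme that commits farnesyl diphosphate to sterols, and had 80.1, 73.6 and 78.5 CPM in ΔNFATC4 cells, against 127, 110, 111 and 134 CPM in mock cells. LSS, which closes squalene epoxide into lanosterol, had 92.2, 87.3 and 88.8 CPM in ΔNFATC4 cells, against 127, 126, 133 and 135 CPM in mock cells. Neither gene had overlapping libraries, and the log2 fold changes were −0.63 ± 0.07 for FDFT1 (adjusted p = 5.09e-06) and −0.54 ± 0.06 for LSS (adjusted p = 2.56e-06). SQLE, the squalene epoxidase, had 11.3, 11.3 and 11.5 CPM in ΔNFATC4 cells, against 15.4, 15.3, 13.6 and 16.8 CPM in mock cells, and fell with a log2 fold change of −0.42 ± 0.09 (adjusted p = 0.0037).

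Of the 8 mevalonate genes 6 fell. IDI1, the isopentenyl diphosphate isomerase, had 85.8, 76.9 and 83.9 CPM in ΔNFATC4 cells, against 122, 122, 110 and 111 CPM in mock cells, and HMGCS1, the cytosolic HMG-CoA synthase, had 145, 140 and 149 CPM in ΔNFATC4 cells, against 193, 196, 174 and 204 CPM in mock cells. For both, each ΔNFATC4 library lay below each mock library, with log2 fold changes of −0.49 ± 0.07 (IDI1, adjusted p = 2.22e-05) and −0.40 ± 0.06 (HMGCS1, adjusted p = 0.000146). MVK and MVD, mevalonate kinase and mevalonate diphosphate decarboxylase, fell with log2 fold changes of −0.37 ± 0.07 and −0.36 ± 0.08. The changes of ACAT2, the cytosolic acetoacetyl-CoA thiolase, and of FDPS, which makes farnesyl diphosphate, were smaller. Their log2 fold changes were −0.22 ± 0.07 and −0.20 ± 0.06, each with an adjusted p of 0.0434. Both calls were lost when ΔNFATC4 replicate 1, 2 or 3 or mock replicate 4 was left out (adjusted p of 0.105 to 0.205). PMVK, phosphomevalonate kinase, and GGPS1, which makes geranylgeranyl diphosphate for protein prenylation, did not pass the test at log2 fold changes of 0.06 ± 0.10 and 0.20 ± 0.08 (adjusted p = 0.785 and 0.0833).

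Of the 9 genes that turn lanosterol into cholesterol 5 fell. MSMO1, the sterol C4-methyl oxidase, had 20.4, 19.9 and 19.6 CPM in ΔNFATC4 cells, against 29.0, 30.2, 28.0 and 34.6 CPM in mock cells. HSD17B7, the keto-reductase of the same demethylation, had 10.0, 10.4 and 11.8 CPM in ΔNFATC4 cells, against 16.8, 14.5, 14.5 and 15.1 CPM in mock cells. EBP, the sterol isomerase, had 92.8, 87.8 and 92.5 CPM in ΔNFATC4 cells, against 127, 116, 120 and 135 CPM in mock cells. None of these genes had overlapping libraries, and the log2 fold changes were −0.60 ± 0.08 for MSMO1, −0.50 ± 0.10 for HSD17B7 and −0.45 ± 0.06 for EBP, with adjusted p values of 3.56e-05, 0.00109 and 5.85e-05. CYP51A1, lanosterol demethylase, and DHCR7, which makes the last reduction of the Kandutsch-Russell branch, both fell with a log2 fold change of −0.38 (standard errors of 0.06 and 0.07). SC5D, NSDHL, LBR and TM7SF2 did not pass the test, at log2 fold changes of −0.14 ± 0.08, −0.08 ± 0.07, −0.09 ± 0.07 and 0.27 ± 0.13. The C14 reduction that LBR and TM7SF2 carry out was thus a step at which neither gene passed the test.

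Some of these values depend on how reads shared with other annotated genes were counted. In GENCODE v44, 89.9% of the 100-base windows of CYP51A1 transcripts, 52.9% of those of EBP, 21.9% of those of GGPS1 and 13.6% of those of HSD17B7 also occur in transcripts of other genes, among them the pseudogenes CYP51A1P1, CYP51A1P2 and HSD17B7P2. CYP51A1, EBP and GGPS1 each overlap an unnamed annotated gene on the same strand. For EBP and GGPS1 it is the only gene that shares their windows. TM7SF2 overlaps VPS51 on the same strand. The values of these 5 genes are therefore uncertain.

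Of the 8 genes of uptake, storage and transfer, 1 rose and 1 fell. SCARB1 had 3587, 3838 and 3374 CPM in ΔNFATC4 cells, against 3221, 2852, 3214 and 3154 CPM in mock cells. The lowest ΔNFATC4 library was just above the highest mock library, and SCARB1 rose with a log2 fold change of 0.22 ± 0.06 (adjusted p = 0.022), a call that was lost without ΔNFATC4 replicate 1 (adjusted p = 0.0827) or 2 (adjusted p = 0.202). NPC1 and NPC2, which pass cholesterol out of the lysosome, and LIPA, the lysosomal acid lipase, had log2 fold changes of −0.06 ± 0.07, −0.11 ± 0.08 and 0.05 ± 0.07 and did not pass the test. SOAT1 had 470, 485 and 482 CPM in ΔNFATC4 cells, against 456, 520, 473 and 484 CPM in mock cells, and LIPE had 39.2, 45.1 and 36.9 CPM in ΔNFATC4 cells, against 35.6, 37.3, 43.8 and 47.7 CPM in mock cells. Both overlapped fully, with log2 fold changes of −0.01 ± 0.06 and −0.02 ± 0.10. Of the transfer genes, STARD4, a soluble sterol carrier, had 58.6, 60.0 and 63.7 CPM in ΔNFATC4 cells, against 70.1, 86.2, 69.6 and 75.9 CPM in mock cells, and fell with a log2 fold change of −0.31 ± 0.08 (adjusted p = 0.00915). That call was lost without ΔNFATC4 replicate 1 (adjusted p = 0.0608) or 2 (adjusted p = 0.0604). STARD3, a late endosomal carrier, did not pass the test at 0.07 ± 0.06.

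**Figure D2:**
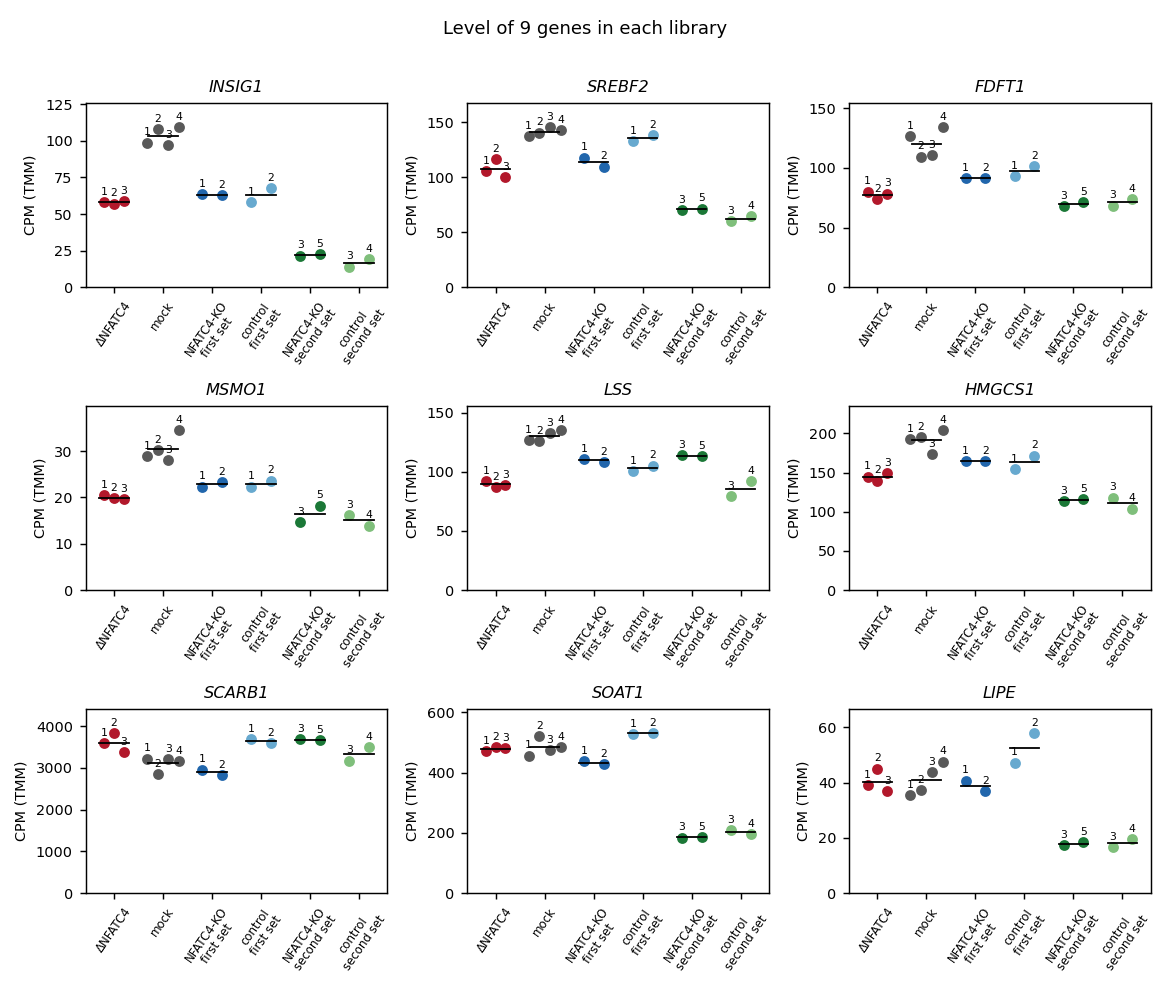
CPM of 9 genes in each of the 15 libraries (points, with the replicate number) and the mean of each column (line). INSIG1, FDFT1, MSMO1, LSS, HMGCS1 and SREBF2 lie lower in ΔNFATC4 than in mock libraries, whereas SOAT1 and LIPE overlap there and are low in all 4 libraries of the second set.

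Other genes of lipid metabolism were counted by lists chosen for their function. In the fatty acid arm, which SREBP1 controls with overlap in targets, 5 of 15 genes fell and none rose in ΔNFATC4 over mock cells. SCD, the stearoyl-CoA desaturase, had 292, 292 and 287 CPM in ΔNFATC4 cells, against 630, 712, 683 and 716 CPM in mock cells. That is a log2 fold change of −1.23 ± 0.06 (adjusted p = 1.71e-11), further from zero than that of any of the 32 cholesterol genes. The desaturases FADS2 and FADS1 fell with log2 fold changes of −0.51 ± 0.06 and −0.47 ± 0.06, and ELOVL5 and SREBF1 fell by less. Of 15 other genes of sterol transport and esters 2 fell, the lipoprotein receptors VLDLR and LRP8. VLDLR had 20.6, 19.6 and 19.0 CPM in ΔNFATC4 cells, against 37.6, 40.0, 42.1 and 32.2 CPM in mock cells. The log2 fold changes were −0.93 ± 0.09 for VLDLR and −0.47 ± 0.09 for LRP8. Of 8 partners of sterol sensing and sterol-regulated degradation, the ubiquitin ligase RNF145 fell and ERLIN2 rose, with log2 fold changes of −0.33 ± 0.06 and 0.26 ± 0.06. Of 9 genes of efflux and the liver X receptors, NR1H3, the gene for LXRα, rose with a log2 fold change of 0.52 ± 0.15. The level of NR1H3 was low, at 3.68, 3.74 and 4.24 CPM in ΔNFATC4 cells. ABCA1, the best-known target of LXRα, did not pass the test at 0.33 ± 0.12.

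Another list held 9 tested genes that use cholesterol as a substrate or serve its conversion to steroids. Of these, HSD3B2 and CYP21A2 rose with log2 fold changes of 0.61 ± 0.08 and 0.24 ± 0.06, and CYP17A1 fell with −0.45 ± 0.07. STAR, which carries cholesterol into mitochondria, and CYP11A1, which cleaves its side chain, did not pass the test at 0.13 ± 0.06 and −0.04 ± 0.06. None of 11 genes of the non-sterol branches (prenylation, dolichol and ubiquinone) passed the test, and their median log2 fold change was 0.03. Of the 8 adrenocortical markers 3 rose (MC2R, HSD3B2 and CYP21A2) and 1 fell (CYP17A1), and their part in the values of the cholesterol genes was not tested.

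The windows from 250 bases before to 50 bases after annotated starts were searched for 3 motifs on both strands. Whether the genes that fell share a regulator was not tested. RefSeq windows (GRCh38.p14) were found for 28 of the 32 genes. The sterol regulatory element written as TCACNCCAC was in 1 of the 28, SREBF2, and in 1.39% of all genes with a window. The CCAAT box, the site of NF-Y, a common partner of SREBP2, was in 13 of the 15 genes that fell and have a window, in 8 of the 13 others, and in 39.7% of all genes with a window. The NFAT core GGAAA was in 7 of those 15 genes, in 8 of the 13 others and in 65.9% of all genes with a window. The motifs do not overlap each other in the windows shown, genes with several starts had several windows, and a match is a string of letters and not a bound site.

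Shown here are the windows of INSIG1, SREBF2, LSS and MSMO1. INSIG1 had the largest fall, and SREBF2 was the only one of the 28 genes with the exact string TCACNCCAC in a window. LSS and MSMO1 are enzymes with a single CCAAT box and with 4. Capitals mark TCACNCCAC and CCAAT on either strand, where ATTGG is CCAAT read from the other strand. The windows are chr7:155297628-155297927 on the plus strand (INSIG1), chr22:41832855-41833154 on the plus strand (SREBF2), chr21:46228725-46229024 on the minus strand (LSS) and chr4:165327419-165327718 on the plus strand (MSMO1).
INSIG1: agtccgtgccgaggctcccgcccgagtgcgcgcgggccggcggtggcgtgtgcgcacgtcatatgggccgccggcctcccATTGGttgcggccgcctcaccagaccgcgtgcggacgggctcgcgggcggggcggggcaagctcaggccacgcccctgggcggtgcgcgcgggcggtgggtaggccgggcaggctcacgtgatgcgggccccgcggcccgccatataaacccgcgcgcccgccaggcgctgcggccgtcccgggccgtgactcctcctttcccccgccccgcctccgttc
SREBF2: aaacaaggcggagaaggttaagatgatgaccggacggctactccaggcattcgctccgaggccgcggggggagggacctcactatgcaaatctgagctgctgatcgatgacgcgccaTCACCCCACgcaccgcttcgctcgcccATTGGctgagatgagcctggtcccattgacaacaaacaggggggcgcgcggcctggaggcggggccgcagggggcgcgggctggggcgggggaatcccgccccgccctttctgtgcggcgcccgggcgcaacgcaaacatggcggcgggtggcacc
LSS: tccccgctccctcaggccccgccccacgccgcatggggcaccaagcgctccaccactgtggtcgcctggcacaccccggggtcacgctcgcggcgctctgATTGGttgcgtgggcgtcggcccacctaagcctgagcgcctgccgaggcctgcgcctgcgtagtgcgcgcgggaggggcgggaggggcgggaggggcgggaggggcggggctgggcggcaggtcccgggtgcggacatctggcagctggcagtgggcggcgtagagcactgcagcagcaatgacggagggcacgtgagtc
MSMO1: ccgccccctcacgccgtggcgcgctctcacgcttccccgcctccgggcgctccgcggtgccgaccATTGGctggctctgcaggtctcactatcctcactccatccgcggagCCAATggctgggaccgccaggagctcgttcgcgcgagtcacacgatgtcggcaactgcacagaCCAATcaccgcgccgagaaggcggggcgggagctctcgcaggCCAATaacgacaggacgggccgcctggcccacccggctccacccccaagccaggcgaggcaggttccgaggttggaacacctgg

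ΔNFATC4 cells were also set against the first library set, which shares the ΔNFATC4 libraries with the comparison above. In every ΔNFATC4 library, 9 of the 32 genes were below every library of the first set and 4 were above. Over all 14368 genes these shares were 22.9% below and 20.3% above. Of the 20 synthesis genes 8 were below and 1 was above, and their median log2 difference was −0.10, against 0.003 over all genes. All 3 squalene genes were below, with differences of −0.41 ± 0.10 for SQLE, −0.29 ± 0.07 for FDFT1 and −0.25 ± 0.09 for LSS.

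INSIG1, the gene with the largest fall against mock cells, had 58.0, 57.0 and 58.9 CPM in ΔNFATC4 cells and 63.5, 63.1, 58.0 and 67.6 CPM in the first set. Control 1 lay within the range of the ΔNFATC4 libraries, and the log2 difference was −0.12 ± 0.10. SREBF2 likewise overlapped, with 106, 116 and 99.7 CPM in ΔNFATC4 cells and 118, 110, 133 and 138 CPM in the first set (−0.21 ± 0.08). CYP51A1, MSMO1, HMGCS1, DHCR7, LBR and STARD4 were below in every library, with differences from −0.38 ± 0.09 for STARD4 to −0.18 ± 0.08 for DHCR7. NPC2, LIPA, STARD3 and GGPS1 were above, NPC2 by the most, at 0.44 ± 0.07.

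Mock cells were set against the first set as well, an addition made after the data had been seen. In mock cells 13 of the 32 genes were above every library of the first set and 1, TM7SF2, was below, against 16.7% and 17.9% of all genes. Of the 20 synthesis genes 10 were above, with a median log2 difference of 0.21. INSIG1 was 0.71 ± 0.09 and IDI1 0.61 ± 0.08 higher in mock cells on the log2 scale, and neither overlapped. The summed level of the 20 synthesis genes was 1203 to 1230 CPM in ΔNFATC4 cells, 1488 to 1637 CPM in mock cells, 1266 to 1357 CPM in the first set and 1040 to 1142 CPM in the second set, and no library of any of these 4 lay within the range of another. Whether transfected cells and the first set were grown or sequenced together is not stated, so transfection and such differences cannot be told apart.

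**Figure D3:**
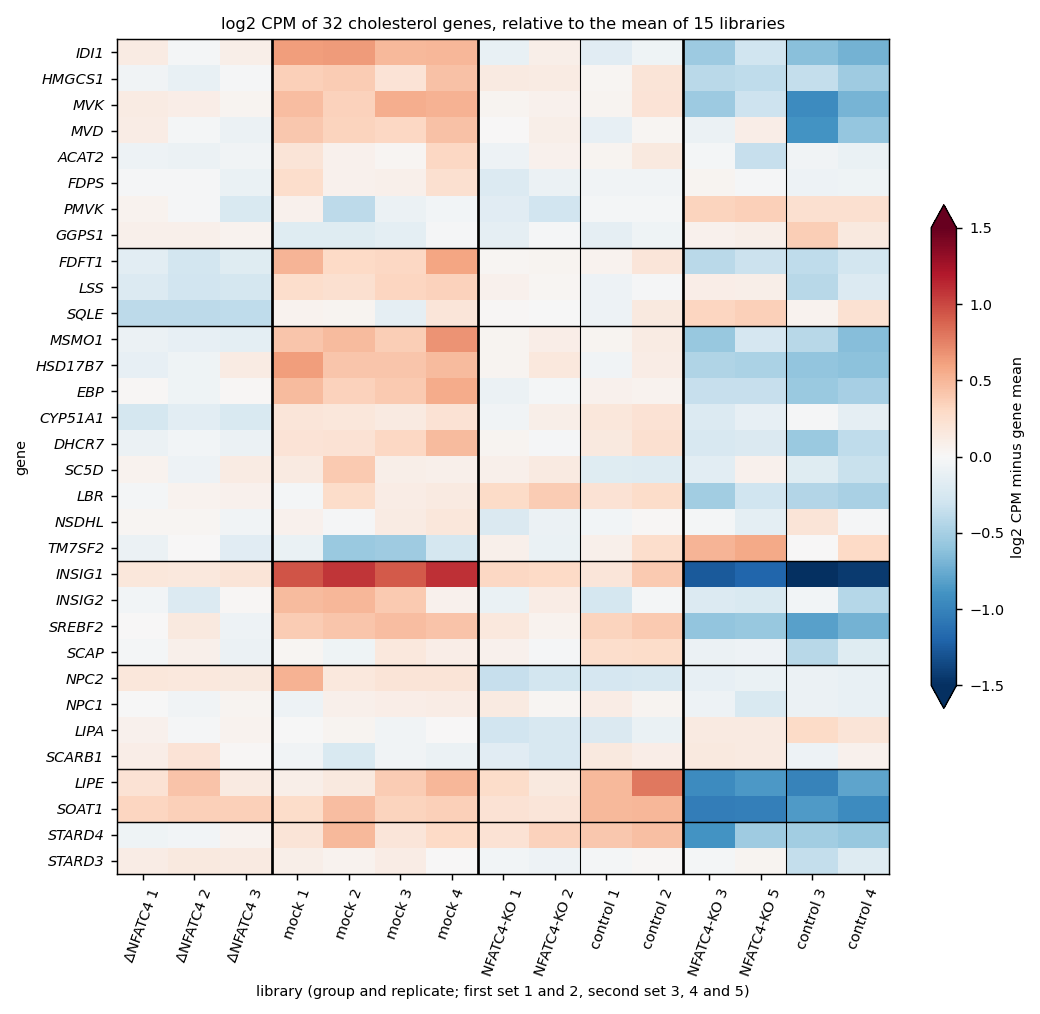
Log2 CPM of the 32 genes (rows, by role) minus the gene's mean over 15 libraries (columns). Blue is below and red above the mean, thick lines part ΔNFATC4, mock, first set and second set, and INSIG1 reaches its highest levels in mock and its lowest in the second set.

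The cholesterol genes also parted the library sets. In the first set 16 of the 32 genes were above every library of the second set and 4 were below, against 19.1% above and 18.3% below of all 14368 genes. The median log2 difference of the 20 synthesis genes was 0.28, against 0.003 over all genes. Since each set holds libraries of both labels, the difference is not one of genotype as labelled.

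The widest differences were in INSIG1, ester storage, STARD4 and SREBF2. INSIG1 had 63.5, 63.1, 58.0 and 67.6 CPM in the first set and 21.5, 22.5, 14.1 and 19.0 CPM in the second set, 3.30-fold apart (1.72 ± 0.10 on the log2 scale). SREBF2 had 118, 110, 133 and 138 CPM in the first set and 69.8, 71.4, 59.7 and 64.5 CPM in the second set (0.92 ± 0.07). For both genes all 4 libraries of the first set were clearly higher. LIPE had 40.8, 37.1, 47.3 and 58.0 CPM in the first set and 17.5, 18.4, 16.8 and 19.5 CPM in the second set (1.36 ± 0.12). SOAT1 had 438, 428, 527 and 531 CPM in the first set and 184, 186, 210 and 196 CPM in the second set (1.32 ± 0.07). Thus the gene that makes cholesterol esters and the gene that hydrolyses them were both over 2-fold apart between the sets. STARD4 had 71.7, 78.3, 81.3 and 83.8 CPM in the first set and 32.9, 42.5, 42.9 and 41.4 CPM in the second set (0.99 ± 0.08).

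A few genes were lower in the first set. LIPA had 34.5, 35.4, 36.0 and 39.1 CPM in the first set and 46.2, 46.1, 51.2 and 47.9 CPM in the second set (−0.39 ± 0.06). PMVK had 20.7, 19.1, 22.8 and 22.8 CPM in the first set and 29.2, 29.7, 27.5 and 27.4 CPM in the second set (−0.40 ± 0.09). GGPS1 and NPC2 were also below without overlap (−0.24 ± 0.08 and −0.16 ± 0.07), whereas TM7SF2 and SQLE overlapped (−0.26 ± 0.13 and −0.21 ± 0.09). SCAP had 328, 308, 375 and 379 CPM in the first set and 296, 297, 235 and 275 CPM in the second set (0.35 ± 0.08), and INSIG2 had 19.8, 22.9, 17.7 and 20.9 CPM in the first set and 18.4, 18.1, 20.6 and 15.8 CPM in the second set (0.17 ± 0.10). SCAP did not overlap and INSIG2 did. SCARB1 had 2960, 2834, 3695 and 3593 CPM in the first set and 3683, 3670, 3176 and 3489 CPM in the second set, which overlapped widely (−0.09 ± 0.07). Other genes of this metabolism also parted the sets, as SCD was 1.54 ± 0.07 and STAR 1.25 ± 0.11 higher in the first set on the log2 scale. Of the 8 adrenocortical markers 5 were above without overlap in the first set, and their part in these values was not tested.

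The comparison of NFATC4-KO with control asks which genes follow the loss of NFATC4. None of the 32 genes rose or fell in a fit of these 8 libraries, in which edgeR called 0% of all 13868 genes in either direction. At an unadjusted p under 0.05 there were 1257 genes, or 9.06%, and 3 of the 32 members (SC5D, LSS and NSDHL). DESeq2 called 65 genes higher and 90 lower and limma-voom 13 and 13, without any of the 32 among them. Blocking on replicate gave 44 rises and 92 falls over all genes, again with 0 of the 32. Each label holds libraries of both sets, and standard errors were wide. The log2 fold change was 0.10 ± 0.59 for INSIG1, −0.25 ± 0.45 for SOAT1 and −0.10 ± 0.33 for SREBF2, so for INSIG1 and SREBF2 a change of the size found between ΔNFATC4 and mock cells was not detectable here.

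**Figure D4:**
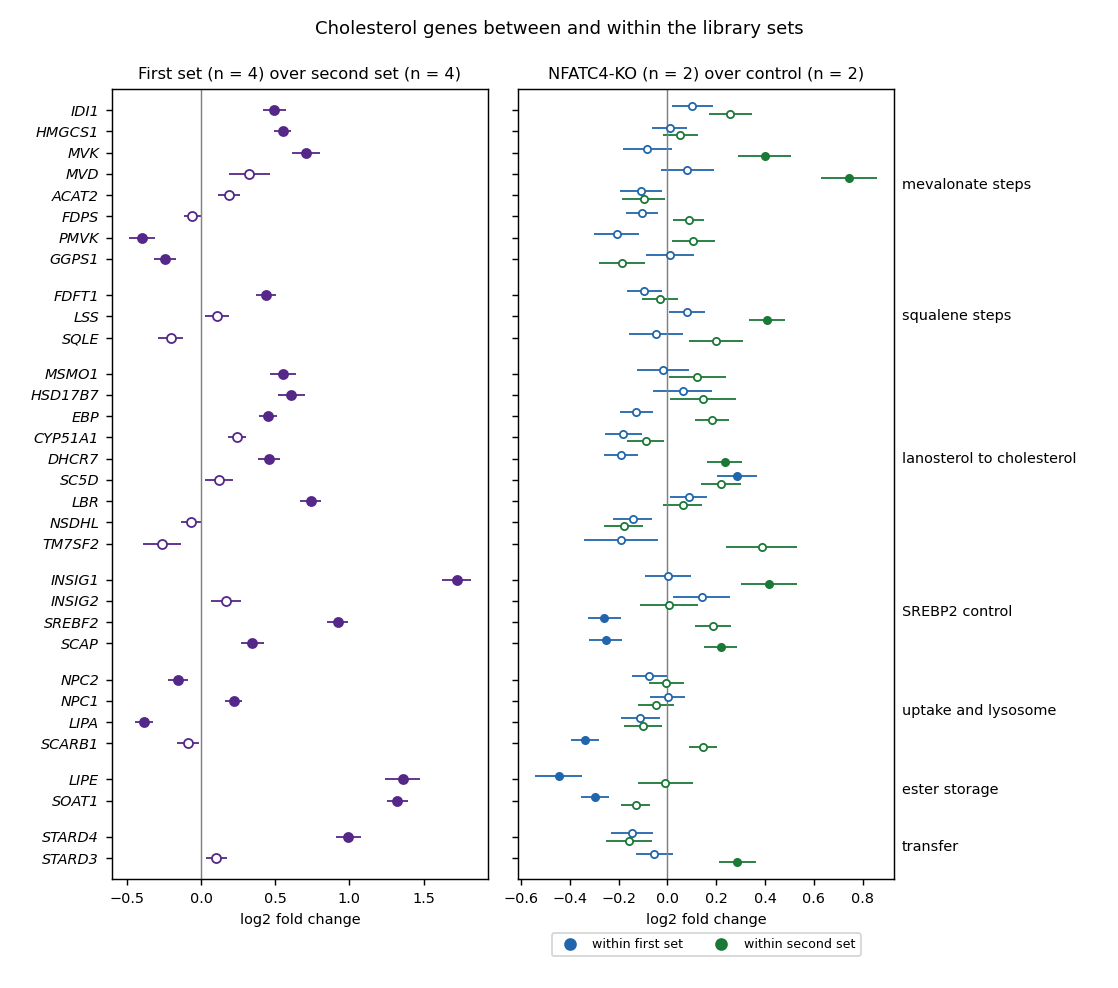
Left, log2 difference ± standard error of the 32 genes between the first and the second library set (4 libraries each), filled where the libraries do not overlap. Right, log2 fold change ± standard error of NFATC4-KO over control (2 libraries each) within the first (blue) and the second (green) set, filled at an adjusted p under 0.05. INSIG1 is the farthest to the right on the left side, and on the right SCARB1, SCAP, SREBF2, DHCR7 and MVD are placed apart in the 2 sets.

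With the library set as a block, 3 of the 32 genes rose in NFATC4-KO over control (SC5D, LSS and MVD) and SOAT1 fell, while 4.48% of all 14028 genes rose and 5.92% fell. Within each set, with 2 libraries per label, the values differed. Within the first set SC5D rose and 5 genes fell, while 1.76% of all genes rose and 4.12% fell. SCARB1 had 2960 and 2834 CPM in NFATC4-KO libraries, against 3695 and 3593 CPM in control libraries, a log2 fold change of −0.34 ± 0.06 (adjusted p = 0.000922). SOAT1 and LIPE fell with −0.30 ± 0.06 and −0.45 ± 0.10, and SREBF2 and SCAP fell with −0.26 ± 0.07 and −0.25 ± 0.07. The falls were thus 1 of 4 uptake genes, both ester storage genes and 2 of 4 control genes, and 1 of the 20 synthesis genes passed the test, SC5D. In the same libraries 7 of the 8 adrenocortical markers fell, and their part in these values was not tested.

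Within the second set 7 of the 32 genes rose in NFATC4-KO over control and none fell, while 7.92% of all genes rose and 6.57% fell. MVD had 20.8 and 23.7 CPM in NFATC4-KO libraries, against 11.9 and 14.8 CPM in control libraries, a log2 fold change of 0.74 ± 0.12 (adjusted p = 0.000192). LSS had 114 and 113 CPM in NFATC4-KO libraries, against 79.5 and 92.3 CPM in control libraries, a log2 fold change of 0.41 ± 0.07 (adjusted p = 0.000838). MVK, INSIG1, DHCR7, SCAP and STARD3 rose with log2 fold changes of 0.22 ± 0.07 for SCAP to 0.42 ± 0.12 for INSIG1. Of the 7 rises 4 were of synthesis genes, and SOAT1 and LIPE did not pass the test (−0.13 ± 0.06 and −0.01 ± 0.11). In these libraries 2 of the 8 adrenocortical markers fell.

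The difference between the sets was tested with an interaction term, which was added after the data had been seen and uses sets taken from these libraries. It passed for 5 of the 32 genes, all with a lower value of NFATC4-KO over control in the first set, against 0.725% of all 14200 genes in that direction and 0.0563% in the other. The difference of log2 fold changes was −0.48 ± 0.08 for SCARB1 (adjusted p = 0.00497), −0.47 ± 0.10 for SCAP (0.0229), −0.45 ± 0.10 for SREBF2 (0.0376), −0.43 ± 0.10 for DHCR7 (0.0443) and −0.66 ± 0.16 for MVD (0.0458). These calls rest on 2 libraries per label and set. With 1 library left out their number was 0 without control replicate 3 or NFATC4-KO replicate 2 or 5, 1 without control replicate 2 or NFATC4-KO replicate 1 or 3, 2 without control replicate 1 and 12 without control replicate 4.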

How the data were processed

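RNA-Seq was made from 15 NCI-H295R libraries. The authors prepared mRNA libraries, and per the labels the reads were aligned with STAR to GRCh38.p13 and counted per gene with featureCounts. The deposited values are raw counts, and tool versions and multi-mapping settings are not given in the sources used here. The paper names an earlier GENCODE release as its reference. Exon lengths, overlaps and shared windows were taken from GENCODE v44, so they may differ from the annotation that was counted. Symbols were matched for 21400 of 21493 genes. TMM factors, CPM and tests were computed with edgeR 4.0.16 (quasi-likelihood, robust, filterByExpr) in R 4.3.3. Fits held the 7 ΔNFATC4 and mock libraries, the 8 control and NFATC4-KO libraries, or, for differences with a library set, all 15. Changes were called at a Benjamini-Hochberg adjusted p under 0.05, over every gene in the fit, and standard errors were derived from the log2 fold change and its F statistic. Alternatives used DESeq2 1.42.0 and limma 3.58.1, other scalings and filters, the replicate number or library set as a block, and each library left out. The fit was tested on simulated data.

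The members, the lists and the library sets were chosen with earlier results of these data known. Values per library are given for up to 8 called falls and rises, for the 5 genes furthest higher in the first set, and for SREBF2, SCAP, INSIG1 and INSIG2. Of the widest set differences the other way, only PMVK and LIPA have values per library of the sets. Up to 3 called genes of the other lists are given in full, with further ones by name. A gene of one of these lists is not reported here. FDFT1, SQLE, ACAT2 and SCARB1 had no promoter window in the table used. Between ΔNFATC4 and mock, libraries of the same number did not shift together across genes (correlations of 0.11, −0.09 and 0.04). Those labelled NFATC4-KO and control did (0.810, 0.787 and 0.711), but numbers 1 and 2 lie in 1 library set and number 3 in the other. Shifts were taken from the mean of each label over both sets, so these correlations cannot tell pairing from the set difference. The main fit of these libraries had no pairing, and the replicate number entered only as a block in an alternative.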

Additional observations from a re-analysis of the deposited data

Results flagged for a closer look

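The interaction term passed for 5 of the 32 genes, as a difference between the library sets in the change of NFATC4-KO over control. The sets come from the values of these same libraries, and the term was added after the data had been seen. Over all 14200 genes 0.725% passed with a lower value in the first set and 0.0563% with a higher one. With 1 library left out the number of the 32 genes that passed ran from 0 to 12. The differences of log2 fold changes (first set minus second set) were −0.66 for MVD, −0.43 for DHCR7, −0.45 for SREBF2, −0.47 for SCAP and −0.48 for SCARB1.

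Among 96 groups of 4 libraries (32 genes in mock, NFATC4-KO and control), 3 held a library far from the others by Dixon's criterion. Chance alone gives about 1 in 20 where the 4 libraries are alike. The NFATC4-KO and control groups each mix both library sets, so that rate does not apply to them. SC5D had 75.7 CPM in mock replicate 2, while the other mock libraries had 60.9 to 63.3 CPM, and 45.8 CPM in control replicate 4, while the other control libraries had 50.5 to 51.1 CPM. NPC2 had 98.6 CPM in mock replicate 1, while the others had 76.6 to 78.9 CPM.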

How the results depend on the processing

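In ΔNFATC4 over mock cells the number of genes that fell stayed between 14 and 18 under 14 of 15 alternatives. The exception was a fit of all 15 libraries, with 4 falls (FDFT1, LSS, CYP51A1 and SQLE) and 0 rises. In that fit 204 of all 14368 genes fell and 326 rose. With 1 library left out 14 to 18 fell and 0 to 1 rose, while 458 to 1219 of all genes fell and 644 to 1341 rose. A replicate block, for numbers that share no stated origin, left 16 falls and 1 rise, while 933 of all 14219 genes fell and 1086 rose. Of the uncalled genes, the log2 fold change turned positive for SOAT1 (0.0018) with a filter of 50 counts and for LIPE (0.066) with the replicate block. Neither gene was called under any alternative. With a library left out, log2 fold changes crossed 0 for PMVK (−0.027 to 0.128), SOAT1 (−0.035 to 0.032) and LIPE (−0.103 to 0.064).

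In NFATC4-KO over control, where the replicate block called 0 of the 32 genes, limma-voom gave a synthesis median of −0.12, MVK −0.19 and INSIG1 −0.48. With the library set as a block 3 rose and 1 fell, and DHCR7 was 0.019. Within the first set 1 rose and 5 fell, the median was −0.065, MVK −0.082 and STARD3 −0.054. Within the second set 7 rose, the median was 0.13, DHCR7 0.24, SREBF2 0.19, SCAP 0.22 and SCARB1 0.14. With a library left out the median ran from −0.036 to 0.138, DHCR7 from −0.13 to 0.12, SREBF2 from −0.28 to 0.10, SCAP from −0.160 to 0.054, LIPE from −0.547 to 0.029, MVK from −0.067 to 0.30, INSIG1 from −0.17 to 0.49 and INSIG2 from −0.0037 to 0.131. The causes were not tested.

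For ΔNFATC4 against the first set, 17 genes were below with only its control libraries and 7 above with only its NFATC4-KO libraries, and 4 to 7 were above and 9 to 13 below with a library left out. Between the sets the synthesis median was 0.37 with control and 0.20 with NFATC4-KO libraries alone, where 10 genes were below. Groups of fewer libraries overlap less often, and the share over all genes was not counted for these settings. Such counts are therefore not comparable with those of the full groups. The interaction called 2 genes with DESeq2's size factors or the filter of 50 counts, and 0 to 12 with a library left out.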
